A study of Mus musculus with 10 samples.

Results

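Cytosolic ribosomal protein genes were examined in RNA-seq gene counts from the midbrain of mouse embryos. The genes were taken by symbol: Rpsa, Rplp0, Rplp1, Rplp2, and protein-coding genes named Rpl or Rps with a number and at most a suffix letter or paralogue ending. Kinases of the Rps6k family, pseudogenes and Rps19bp1 were left out. The rule found 83 of the 30935 gene IDs in the table, 52 of the large and 31 of the small subunit. Of these, 79 passed the filter on low counts, beside 15288 genes in all. The 4 that did not were the paralogues Rpl10l, with 0 counts in all libraries together, Rpl39l with 5, Rpl3l with 30 and Rpl32l with 91.

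Midbrains came from embryos at embryonic day 14.5 that were either wild-type (Rbfox1 +/+, libraries 1, 2, 4, 5 and 6) or homozygous for the Rbfox1 ΔHAR.321 allele (libraries 2, 3, 4, 5 and 6, called deletion here). HAR.321 is a human accelerated region, a conserved element that changed fast on the human lineage, and it lies at Rbfox1, the gene of a splicing regulator of neurons. The 5 samples of each group were described as independent biological samples. Strain, sex, litter and the number of founder lines were not given in the sources used here.

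The ribosome has a small subunit, which decodes the message, and a large subunit, which joins amino acids and holds the exit tunnel of the growing chain. Each particle carries 1 copy of most ribosomal proteins, and cells make these proteins in matched amounts. Their messages are abundant and short, and most begin with a run of pyrimidines at the cap, the terminal oligopyrimidine (TOP) motif, through which mTOR and Larp1 control their translation and stability. Dividing neural progenitors are known for high ribosome production.

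The libraries held 16246892 to 20255728 counts. The deleted element is no row of the table, so counts could not check the genotype labels. Its host gene Rbfox1 ran from 140 to 166 CPM (counts scaled to a common library size) in wild-type and from 147 to 181 CPM in deletion libraries, and did not pass edgeR's test (adjusted p = 0.606). All 13 midbrain markers checked, among them Otx2, En1 and Pax7, were detected. One library stood apart from the rest: on the leading principal component, which held 26.4% of the variance, deletion 4 scored -23.8 against -5.43 to 12.9 for the others. Results that rest on it are given with and without it.

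The ribosomal protein genes together took a smaller share of the counts in most deletion libraries. They held 2.64 ± 0.17% of all gene counts in wild-type and 2.32 ± 0.21% in deletion libraries (SD, n = 5 each). The wild-type libraries 1, 2, 4, 5 and 6 stood at 2.71%, 2.44%, 2.83%, 2.73% and 2.47%. The deletion libraries 2, 3, 4, 5 and 6 stood at 2.32%, 2.28%, 2.65%, 2.28% and 2.07%. Deletion 4 lay inside the wild-type range, and the other 4 were lower than all 5 wild-type libraries. In whole tissue, fewer cells with many ribosomal messages and fewer such messages per cell cannot be told apart. The libraries also differed in a trend on transcript length, given with the length values below, and its part in the share was not tested.

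**Figure D1:**
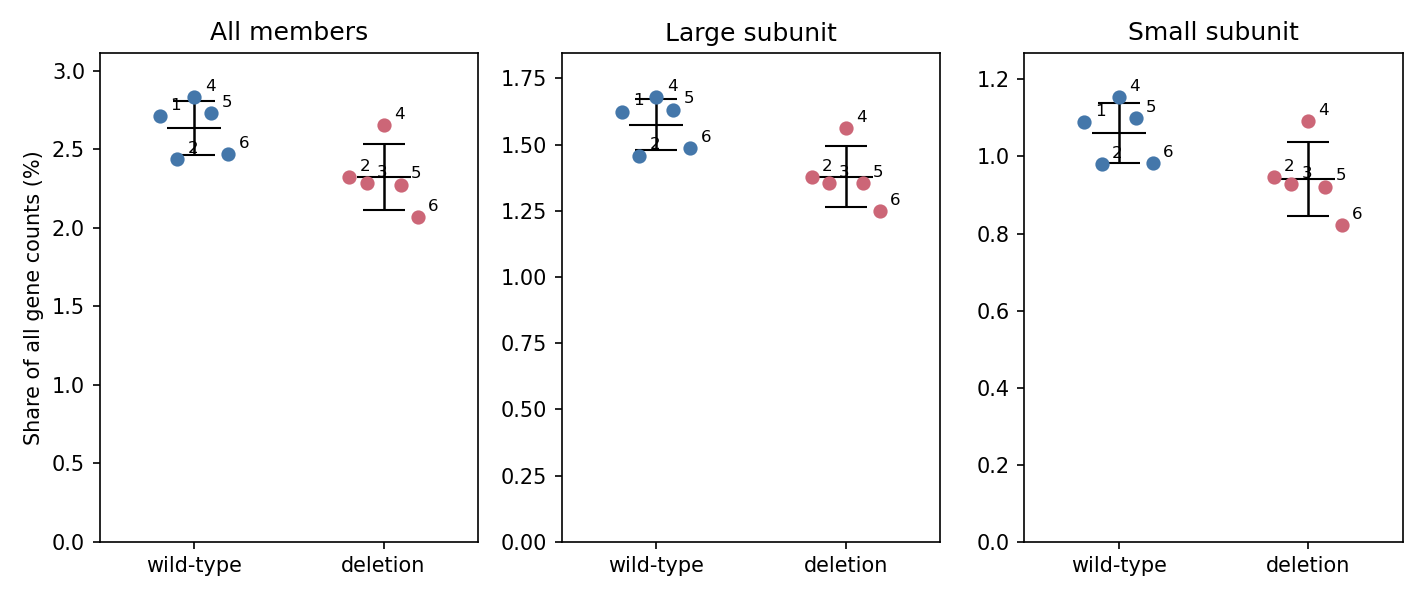
Share of all gene counts (%, y axis from 0) held by the 83 ribosomal protein genes, by the large and by the small subunit, in wild-type and deletion libraries. Points are libraries with their replicate numbers, and bars give the mean ± SD of 5 libraries. Deletion 4, at 2.65% for all members, sits among the wild-type libraries, and the other deletion libraries lie at 2.32% or less.

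Both subunits followed the same course. Large subunit genes took 1.58 ± 0.097% of counts in wild-type and 1.38 ± 0.11% in deletion libraries, and small subunit genes 1.06 ± 0.077% and 0.942 ± 0.096%. The ratio of large to small subunit counts was 1.49 ± 0.020 in wild-type and 1.47 ± 0.032 in deletion libraries, with ranges of 1.46 to 1.51 and 1.43 to 1.52 that overlapped.

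Gene by gene, 76 of the 79 tested genes had a log2 fold change below 0, where 50.7% of all tested genes did. Fold changes here compare deletion with wild-type on the log2 scale. The median over the 79 was -0.21, with quartiles of -0.26 and -0.15, against 0.00 over all genes tested. The large subunit median was -0.22 over 48 genes and the small subunit median -0.19 over 31. The extremes were -0.47 for Rpl22l1 and 0.13 for Rpl29. With libraries scaled by the summed counts of the members themselves, the median over the 79 was -0.03, 47 were below 0, and the median over all genes moved to 0.18. This scaling makes the members' sum equal between libraries, so a median near 0 follows from it.

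Few of these differences passed the test gene by gene. With edgeR's quasi-likelihood test and Benjamini-Hochberg adjustment over all 15288 genes, 2 of the 79 fell, Rpl36 and Rpl21, and 0 rose. Over all genes, 9 fell, a share of 0.0589%. At an unadjusted p under 0.05, 53 of the 79 (67.1%) were lower, against 4.92% of all genes, and 0 were higher, against 5.62% of all genes. DESeq2 called 28 of the 76 members it gave an adjusted p as lower, against 1.44% of all genes. limma-voom called 2, against 0.0523% of all genes.

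Without deletion 4 the same comparison called many more. Then 44 of the 79 ribosomal protein genes fell and 0 rose, against 1.43% and 0.888% of all genes, and all 79 had a log2 fold change below 0, with a median of -0.25. Deletion 4 was singled out from these same data, and the adjustment over genes does not cover that choice. In deletion 4 itself, 38 of the 79 genes lay below their wild-type mean. In deletion 2, 3, 5 and 6 the numbers were 75, 77, 76 and 79. The call count also moved with single wild-type libraries: it was 9 without wild-type 2, 1 without wild-type 4 and 0 without wild-type 1, 5 or 6. Over all genes, 31 fell and 57 rose without wild-type 2, and 1 fell without wild-type 4. Without wild-type 1, 5 or 6, 0 of all genes were called. Leaving out deletion 3 left 1 member called, where 3 of all genes fell. Leaving out deletion 2, 5 or 6 left 0 members, where 0, 0 and 3 of all genes fell.

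**Figure D2:**
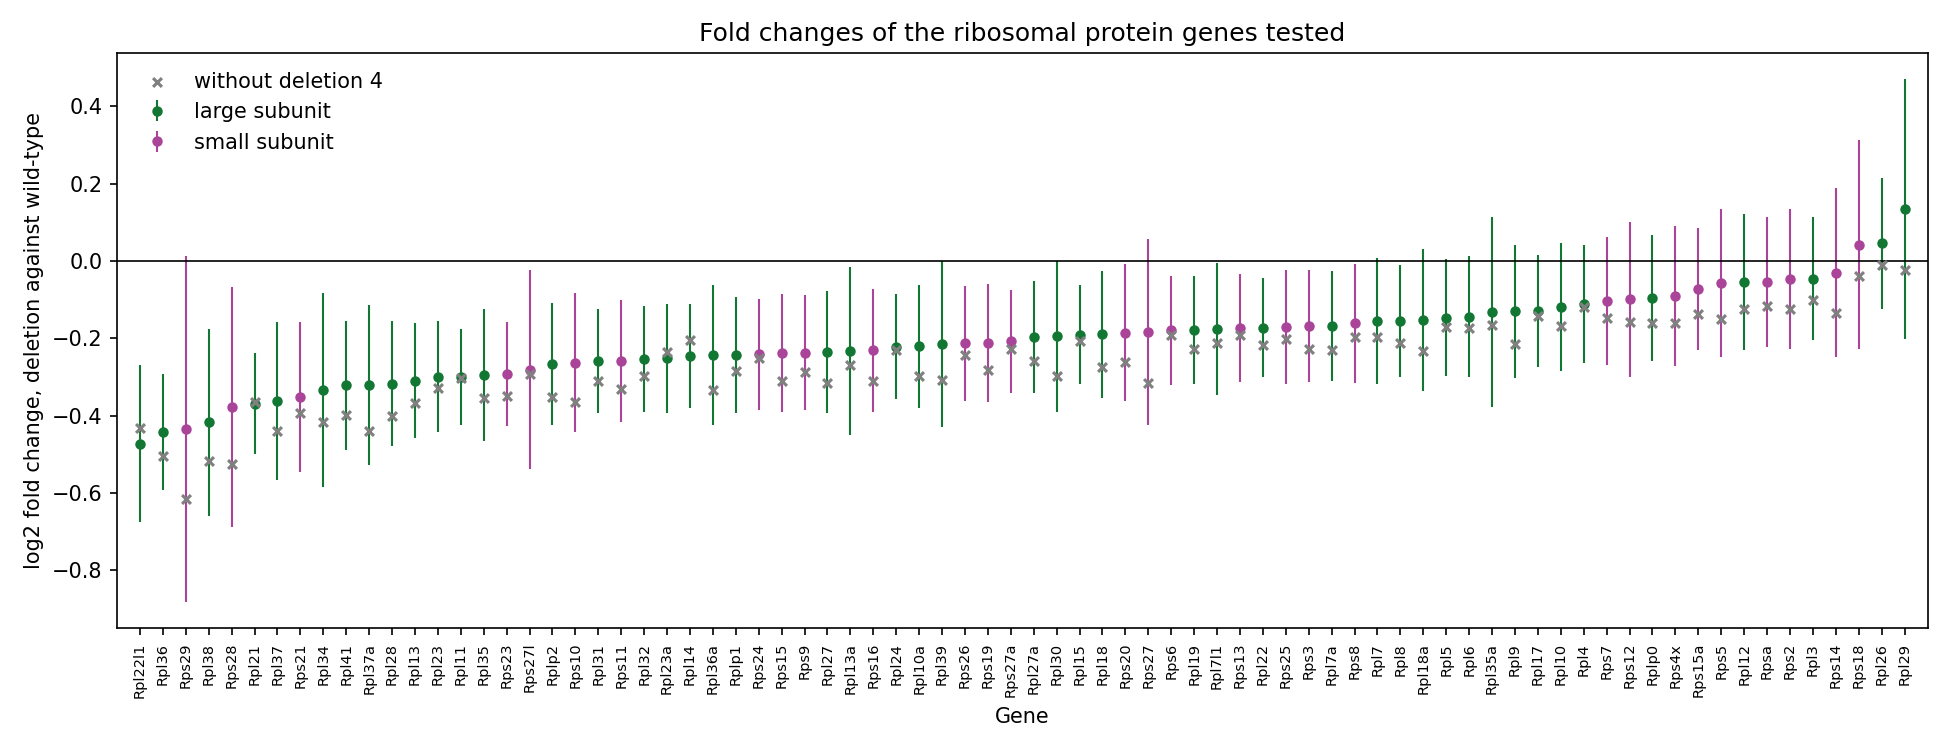
log2 fold change of deletion against wild-type (y axis) for the tested ribosomal protein genes (x axis; 1 gene is not shown), ordered by value. Circles and bars give the estimate and its 95% interval from edgeR over all 10 libraries, in green for the large and purple for the small subunit, and gray crosses give the estimate without deletion 4. Nearly all circles lie below 0, from -0.47 for Rpl22l1 to 0.13 for Rpl29, and all crosses do.

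The 2 genes that passed belong to the large subunit. Rpl36 encodes one of its small proteins. Its level was 210, 216, 177, 197 and 199 CPM in wild-type 1, 2, 4, 5 and 6, and 145, 144, 172, 144 and 130 CPM in deletion 2, 3, 4, 5 and 6. The groups did not overlap, though wild-type 4 and deletion 4 were close. The deletion mean, 147 ± 15.1 CPM (SD, n = 5), was 26.4% lower, a log2 fold change of -0.44 (SE 0.07, edgeR adjusted p = 0.0296).

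Rpl21 encodes another large subunit protein. Its level was 122, 127, 136, 134 and 120 CPM in wild-type 1, 2, 4, 5 and 6, and 100, 107, 98.1, 97.6 and 92.0 CPM in deletion 2, 3, 4, 5 and 6. All 5 deletion values, that of deletion 4 included, were lower than all 5 wild-type values. The means were 128 ± 7.25 and 98.9 ± 5.23 CPM, a log2 fold change of -0.37 (SE 0.06, edgeR adjusted p = 0.0296). Both genes also passed DESeq2 (adjusted p = 1.92e-05 for each) and limma-voom (0.0415 for each), and neither passed edgeR when each library's trend on transcript length was removed, as given with the length values.

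The other members with the smallest p did not pass edgeR's test over all libraries. Rpl11, which binds the 5S ribosomal RNA with Rpl5 and can bind Mdm2, the inhibitor of p53, stood at 174, 164, 177, 188 and 172 CPM in wild-type 1, 2, 4, 5 and 6, and at 131, 148, 144, 141 and 147 CPM in deletion 2, 3, 4, 5 and 6. Its groups did not overlap, and its log2 fold change was -0.30 (SE 0.06, edgeR adjusted p = 0.0582). Rps23 lies at the decoding centre of the small subunit. It stood at 274, 255, 275, 274 and 268 CPM in the wild-type and at 208, 222, 255, 210 and 205 CPM in the deletion libraries, in the same order. Its groups met closely, since deletion 4 was only just below wild-type 2, and its log2 fold change was -0.29 (SE 0.06, adjusted p = 0.0757).

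Rpl13 and Rpl23 followed. Rpl13 went from 677 ± 37.8 to 546 ± 54.7 CPM, a log2 fold change of -0.31 (SE 0.07), and deletion 4 and wild-type 6 both stood at 635 CPM after rounding. Rpl23, another protein known to bind Mdm2, ran from 176 to 225 CPM in wild-type and from 147 to 168 CPM in deletion libraries, a log2 fold change of -0.30 (SE 0.07). Both had an edgeR adjusted p of 0.0785. Without deletion 4 the edgeR adjusted p was 0.00198 and 0.00773. That library was singled out from these same data, and the adjustment does not cover this choice.

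**Figure D3:**
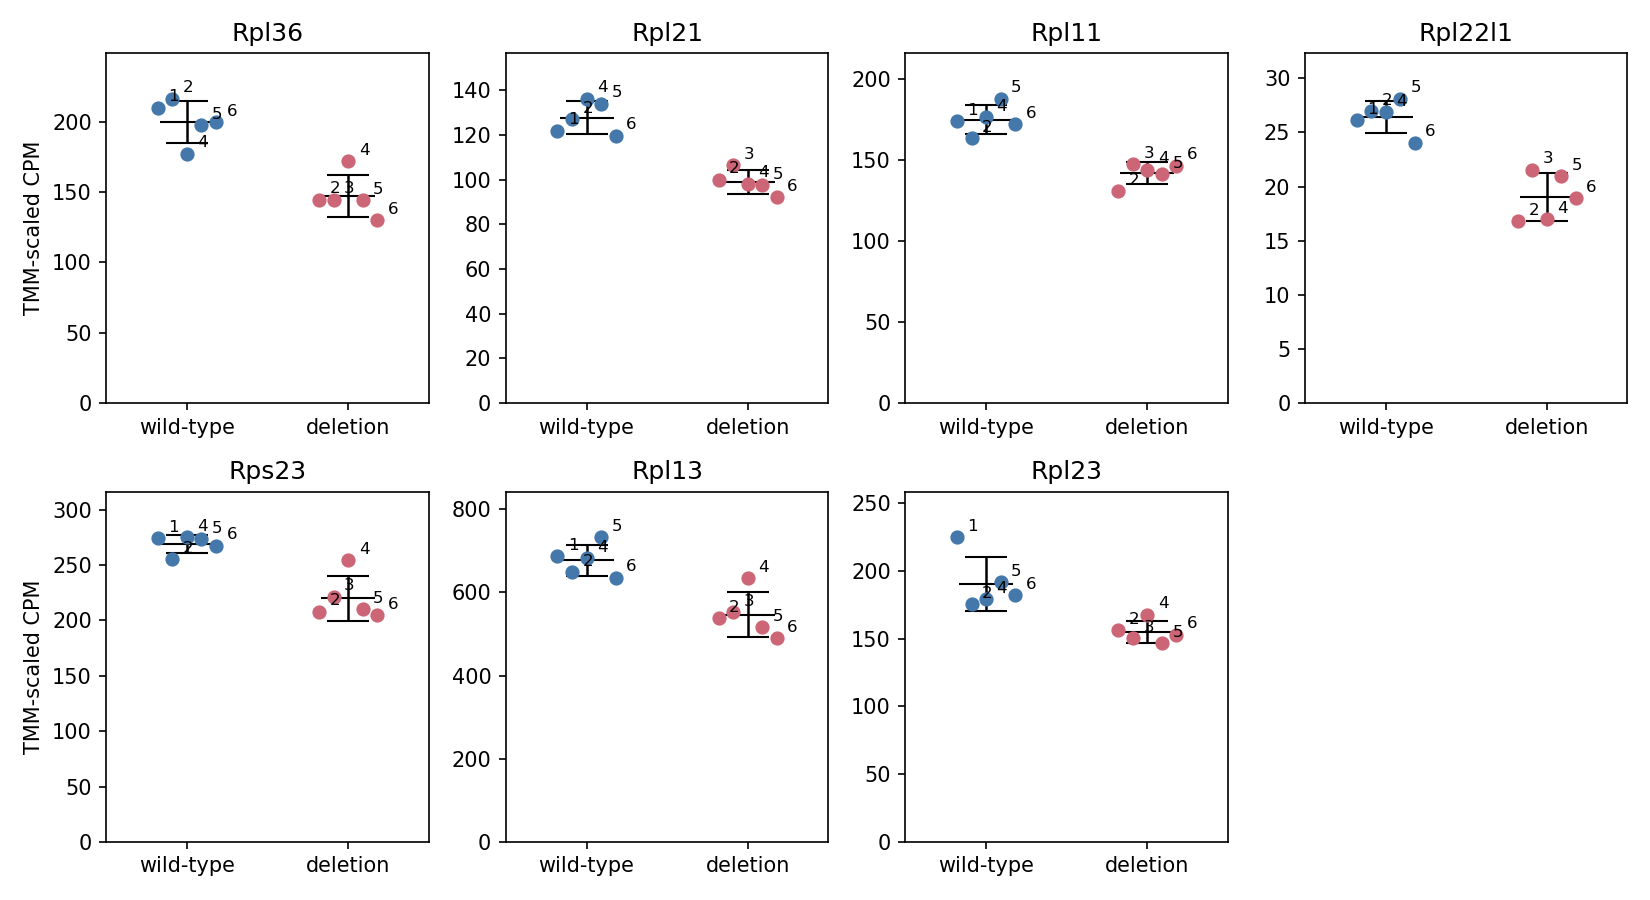
TMM-scaled CPM (y axes from 0) of the 7 ribosomal protein genes with the smallest p in edgeR's test, in wild-type and deletion libraries. Points are libraries with their replicate numbers, and bars give the mean ± SD of 5 libraries. For all 7 genes the deletion libraries lie below the wild-type libraries, most narrowly for Rps23 and Rpl13, where deletion 4 and the lowest wild-type library both round to 255 and to 635 CPM.

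In all, 13 of the 79 genes had every deletion library below every wild-type library, a pattern found in 1.26% of all tested genes. The opposite pattern was found in 0 of the 79 and in 1.22% of all genes. The 13 were Rpl36, Rpl21, Rpl11, Rpl22l1, Rps23, Rpl13, Rpl23, Rpl35, Rplp1, Rps24, Rps27a, Rpl14 and Rpl15, of which Rpl14 and Rpl15 were chosen for naming after their values were seen.

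At the other end, 3 of the 79 genes had positive values and 1 was close to 0. Rpl29 stood at 11.5 ± 1.36 CPM in wild-type and 12.6 ± 3.54 CPM in deletion libraries, a log2 fold change of 0.13 (SE 0.16). Rpl26, a protein at the rim of the exit tunnel that can bind the p53 message, stood at 356 ± 38.5 and 367 ± 41.4 CPM (0.05, SE 0.08). Rps18, of the head of the small subunit, stood at 25.8 ± 5.68 and 26.6 ± 3.77 CPM (0.04, SE 0.13). In all 3, deletion 4 was the highest deletion library, and without it the log2 fold changes were -0.02, -0.01 and -0.04. Rps14 (-0.03, SE 0.10) and Rps2, near the entry of the message channel (-0.05, SE 0.09), were the next closest to 0 by p.

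The starts of some of these genes are shown to let their promoters be compared. Promoter sequences came from RefSeq on GRCm38.p6, an older build than the one the counts were made on, and were matched by gene ID for 63 of the 83 genes (59 of the 79 tested). Each window runs from 50 bases before to 25 bases from the annotated start. The first 5 genes are those of the 7 with the smallest p that had an entry, and the last 3 are those of the 4 with the largest p. Rpl36, Rpl21 and Rps14 had no entry. Capitals mark CCGGAAG on either strand, the core bound by ETS factors such as Gabpa, and a pyrimidine string, either CTTTC or else CTTTT, and likewise CTTCC or else CTCTT, on the gene's strand within 25 bases of the start; the strings can overlap each other and the reverse complement of the ETS core.
Rpl11: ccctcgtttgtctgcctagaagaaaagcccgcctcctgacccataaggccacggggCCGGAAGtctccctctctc
Rpl22l1: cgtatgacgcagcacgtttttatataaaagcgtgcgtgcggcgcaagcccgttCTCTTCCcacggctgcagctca
Rps23: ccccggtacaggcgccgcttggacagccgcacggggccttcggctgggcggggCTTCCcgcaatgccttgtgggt
Rpl13: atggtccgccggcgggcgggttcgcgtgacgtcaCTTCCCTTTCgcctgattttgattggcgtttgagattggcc
Rpl23: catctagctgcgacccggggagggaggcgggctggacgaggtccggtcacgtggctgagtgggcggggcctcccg
Rpl26: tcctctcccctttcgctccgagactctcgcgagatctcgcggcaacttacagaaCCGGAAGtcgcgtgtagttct
Rps2: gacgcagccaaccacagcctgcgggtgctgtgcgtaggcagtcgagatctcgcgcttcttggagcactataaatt
Rps18: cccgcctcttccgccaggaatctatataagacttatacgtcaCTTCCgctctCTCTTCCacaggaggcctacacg

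On GRCm38.p6 these windows are chr4:136053369-136053443 for Rpl11, chr11:97782415-97782489 for Rpl23 and chr17:33955641-33955715 for Rps18, all on the minus strand. On the plus strand they are chr3:28805458-28805532 for Rpl22l1, chr13:90923072-90923146 for Rps23, chr8:123102300-123102374 for Rpl13, chr11:68901516-68901590 for Rpl26 and chr17:24720013-24720087 for Rps2. Genes from both ends of the list carried an ETS core at the start, Rpl11 and Rpl26, and Rpl22l1 and Rps18 both carried CTCTTCC just after it. The windows of Rpl23 and Rps2 held neither the ETS core nor a pyrimidine string near the start.

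Over the whole 300 bases of the entries, CCGGAAG on either strand was in 24 of the 59 tested genes with an entry (40.7%) and in 9.93% of all 27025 genes of the promoter table. A pyrimidine string within 25 bases of the start was in 34 of the 59 (57.6%) and in 27.5% of all genes. AAGATGGC, the core bound by YY1, was on either strand in 6 of the 59 (10.2%) and in 3.19% of all genes, and TATAAA on either strand in 7 (11.9%) and in 15.7% of all genes. Among the 31 genes with an entry whose p ranked in the smaller part of the 79, 14 held the ETS core and 18 a pyrimidine string; among the other 28 genes, 10 and 16 did. Annotated starts are not measured starts, and these matches describe letters only.

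Levels differed widely between members, which are compared here as wild-type CPM per kilobase of coding sequence. Rpl41, whose coding sequence of 75 bases makes this measure high, led with 6802, followed by Rps26 with 1426, Rplp1 with 1263, Rps24 with 1254 and Rpsa, the laminin receptor protein of the small subunit, with 1162. Among the 79 tested, the lowest were Rpl29 with 23.9, Rpl34 with 39.8, Rpl13a with 48.9, Rps18 with 56.7 and Rpl22l1 with 72.2. Per kilobase of the transcript, Rpl41 still led with 938 and Rpl29 was still lowest with 16.2, but Rps24 stood at 310.

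For some members the table also counts rows of named copies, which stand apart from the members. Rpl34-ps1, a copy of Rpl34, held 95.6% of the counts of the pair (49628 against 2307), and Rps18-ps4 held 88.6% of the counts of Rps18 and its copy. The copies of Rpl17 held 27.4%, Rpl14-ps1 13.1% and Rps6-ps4 8.85%. Reads of such pairs may have been placed on either row, so the levels of these genes are uncertain. Summed with its copy, Rpl34 went from 297 ± 19.2 to 267 ± 32.5 CPM (log2 ratio of the means -0.15, against -0.33 for its own row), and Rps18 from 243 ± 16.6 to 217 ± 29.6 CPM (-0.16, against 0.04 for its own row).

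Subunit parts with known roles were read from the same fit, in which 76 of the 79 members and 50.7% of all tested genes were below 0. The P stalk recruits the factors that drive elongation: Rplp0, Rplp1, Rplp2 and Rpl12 were all below 0, with Rplp2 at -0.27 (SE 0.08), Rplp1 at -0.24 (SE 0.07) and Rplp0 at -0.10 (SE 0.08). Rpl5, the partner of Rpl11 in the 5S particle, had a log2 fold change of -0.15 (SE 0.07). Around the exit tunnel, 7 of 8 genes were below 0, led by Rpl31 at -0.26 (SE 0.06), Rpl23a, which binds the signal recognition particle, at -0.25 (SE 0.07) and Rpl35 at -0.30 (SE 0.08). In the decoding site and head of the small subunit, 6 of 7 were below 0, among them Rps15 at -0.24 (SE 0.07), Rps19 at -0.21 (SE 0.07) and Rps3 at -0.17 (SE 0.07). None of these genes passed edgeR's test over all libraries.

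Genes mutated in Diamond-Blackfan anaemia, an inherited failure of red cell production caused mostly by the loss of 1 copy of a ribosomal protein gene, were 19 in number. Of these 18 were below 0, as were 76 of the 79 tested members and 50.7% of all tested genes. Of the 19, 0 passed edgeR's test and 12 were lower at an unadjusted p under 0.05. That p was reached by 53 of the 79 members (67.1%) and by 4.92% of all genes on the lower side. The median of the 19 was -0.21, the value of the members as a whole. Rpl11 and Rpl31 were among those with the smallest p.

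Paralogue use was compared as the log2 ratio of both genes within each library, which does not depend on library scaling. Rpl22l1 is the paralogue of Rpl22, and either protein can take the same place in the large subunit. Rpl22l1 stood at 26.1, 26.9, 26.9, 28.1 and 24.1 CPM in wild-type 1, 2, 4, 5 and 6, and at 16.8, 21.6, 17.0, 20.9 and 18.9 CPM in deletion 2, 3, 4, 5 and 6. Every deletion library was below every wild-type library, with a log2 fold change of -0.47 (SE 0.10, edgeR adjusted p = 0.0601). Rpl22 itself went from 212 ± 9.10 to 188 ± 14.0 CPM (log2 fold change -0.17, SE 0.06).

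The log2 ratio of Rpl22l1 to Rpl22 was -3.03, -2.95, -3.06, -2.89 and -3.05 in wild-type 1, 2, 4, 5 and 6, and -3.47, -3.10, -3.63, -3.08 and -3.20 in deletion 2, 3, 4, 5 and 6. The groups did not overlap, and deletion 4 and 2 were lowest. The mean went from -3.00 ± 0.08 to -3.30 ± 0.24, a difference of -0.30 (exact two-sided permutation test, p = 0.00794, the smallest that 5 against 5 allows, and 0.0318 adjusted over the 4 pairs tested). The difference ran from -0.35 to -0.22 as single libraries were left out. Its adjusted exact permutation p was then at most 0.0317 without a deletion library, but 0.159 without wild-type 1, 4 or 6 and 0.19 without wild-type 2 or 5. Rpl22l1 thus made up 11.1% of the counts of the pair in wild-type and 9.26% in deletion libraries. Their transcripts differ in length, with 552 bases for Rpl22l1 and 2048 for Rpl22, and with the length trend removed their log2 fold changes were -0.30 (SE 0.10) and -0.14 (SE 0.05). The part of length in the ratio was not tested.

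For the other ratios the groups overlapped and the test was not passed over all libraries. For Rps27l to Rps27 the log2 ratio went from -3.18 ± 0.12 to -3.26 ± 0.31 (exact permutation p = 0.619). For Rpl7l1 to Rpl7 it went from -3.09 ± 0.0084 to -3.11 ± 0.12 (exact permutation p = 0.825). Deletion 3, at -2.90, was above all wild-type libraries. The other 4 deletion libraries, from -3.20 to -3.13, were below all wild-type libraries, from -3.10 to -3.08. Without deletion 3 the difference was -0.076 (exact permutation p = 0.00794, adjusted 0.0159). That library was singled out by its value, and the adjustment covers the pairs but not this choice, so no difference is read from it. For Rps4l, which RefSeq lists as a transcribed pseudogene, to Rps4x it went from -4.09 ± 0.23 to -3.98 ± 0.24 (exact permutation p = 0.468). Each had an adjusted p of 0.825 over all libraries. Rpl7l1 encodes an assembly factor of the nucleolus rather than a known ribosome component. The counts of Rpl3l, Rpl10l, Rpl39l and Rpl36al, the last outside the rule with 76 counts, were too low to test, and their partners Rpl3, Rpl10, Rpl39 and Rpl36a had log2 fold changes of -0.05 (SE 0.08), -0.12 (SE 0.08), -0.22 (SE 0.10) and -0.24 (SE 0.09).

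**Figure D4:**
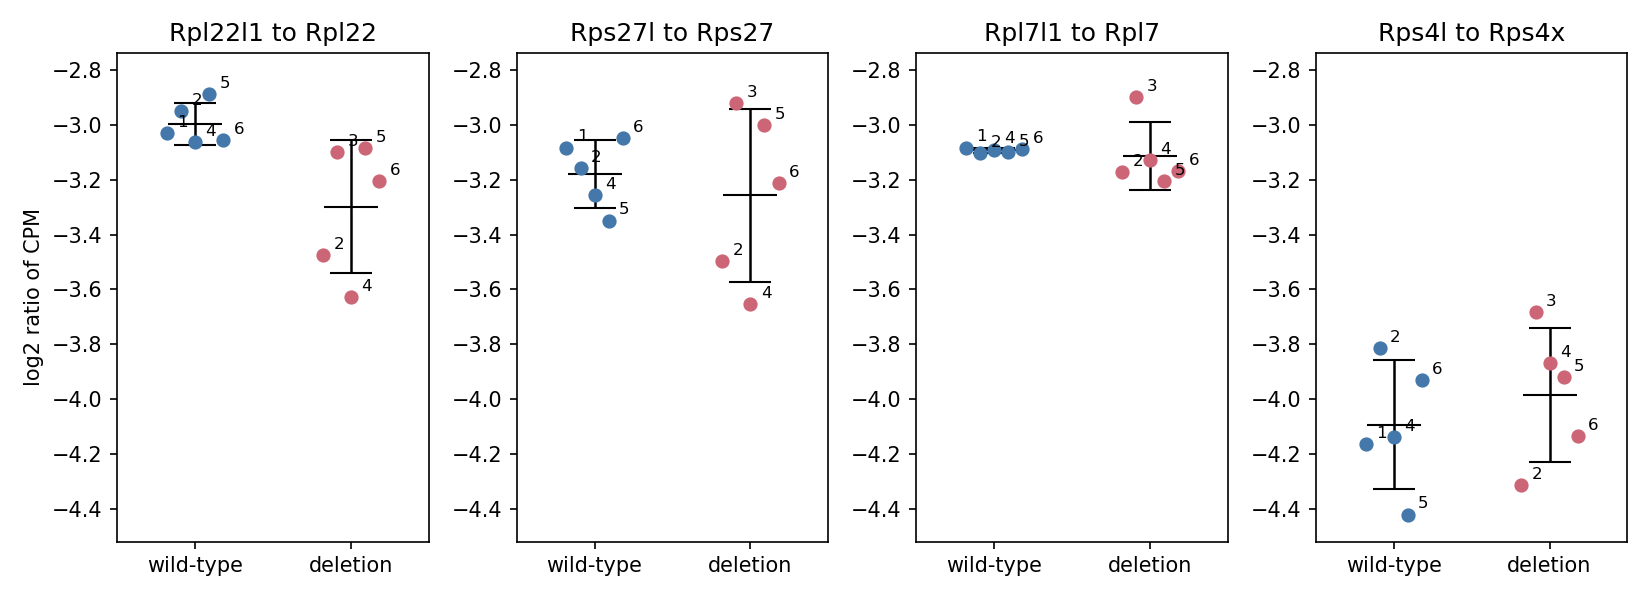
log2 ratio of CPM (shared y axis) of 4 paralogues to their partners in wild-type and deletion libraries. Points are libraries with their replicate numbers, and bars give the mean ± SD of 5 libraries. For Rpl22l1 to Rpl22 all deletion libraries, from -3.63 to -3.08, lie below all wild-type libraries, and for the other 3 ratios the groups overlap.

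The differences between members went with gene length and, by rank, also with level. Ribosomal protein transcripts are short, 58 of the 79 under 1000 bases, and 691 of the 910 other genes under 1000 bases also had a log2 fold change below 0. Among genes outside the list, the median log2 fold change was -0.12 over the 910 under 1000 bases and 0.01 over the 13129 of 1000 bases or more. For ribosomal protein genes it was -0.22 over the 58 shorter and -0.17 over the 21 longer ones. The 13 under 500 bases had a median of -0.33, against -0.20 over 92 other genes of that length. Each length is that of 1 annotated transcript, which for some members is long beside the coding sequence. Rps24 was given 1613 bases with 399 coding, and Rpl21 1067 with 480 coding. Which transcripts these libraries held was not tested, so the length classes and length-removed values of such genes are uncertain. Across the 79 genes the log2 fold change had a Pearson r of 0.52 with the log2 coding length and 0.37 with the log2 transcript length. It was 0.21 with the mean log2 CPM and -0.00 with the GC percent. By rank, Spearman's rho was 0.58, 0.44, 0.44 and -0.07 in the same order. The genes share the same 10 libraries, so these values describe and were not tested.

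**Figure D5:**
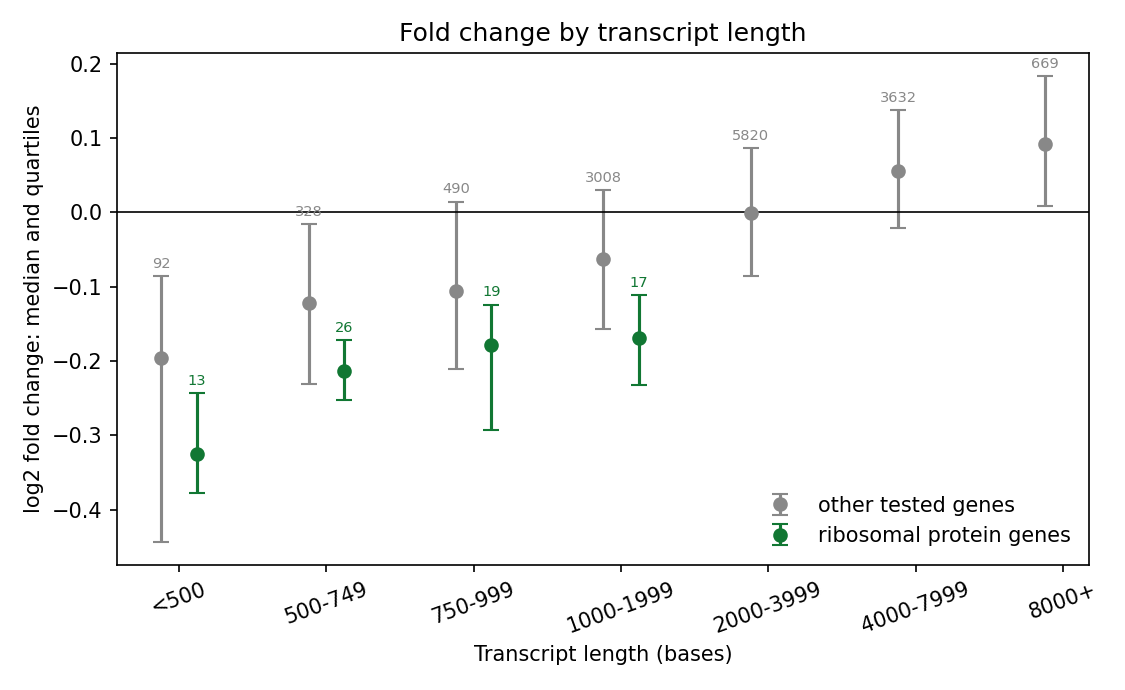
log2 fold change of deletion against wild-type (y axis; circles are medians, bars run between the quartiles) by transcript length in bases (x axis), for ribosomal protein genes in green and other tested genes in gray. Numbers above the bars count the genes, and bins with fewer than 5 ribosomal protein genes show other genes only. In each bin that holds both, the ribosomal protein median is the lower one, from -0.33 against -0.20 under 500 bases to -0.17 against -0.06 in the next bin from 1000 bases.

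The length relation also varied between libraries of one group. Its slope, in log2 units per doubling of transcript length over all genes with a mean log2 CPM above 3, ran from -0.06 to -0.01 in wild-type libraries. It was -0.04 in deletion 4 and 0.03 to 0.09 in the other deletion libraries, so the deletion library whose ribosomal protein share lay in the wild-type range also had a slope in the wild-type range. When each library's trend on length was removed, the median over the 79 genes became -0.07, 62 of the 79 were below 0 and 0 passed edgeR's test. Over all genes, 7683 of 15288 were then below 0 and 0 passed. When length and GC content were both removed, the median over the 79 was -0.08. Rpl36 (-0.24, SE 0.04) and Rpl21 (-0.28, SE 0.05) then passed edgeR's test with an adjusted p of 0.0148 each, where 12 of all genes fell and 10 rose. The trend was fitted on all genes with a mean log2 CPM above 3, the ribosomal protein genes among them.

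Across the 10 libraries most members moved together. The Pearson r of a gene's log2 CPM with the mean of the other members had a median of 0.85, and ran from 0.29 for Rpl29 to 0.99; Rps18 (0.40), Rpl26 (0.50) and Rpl22l1 (0.55) were among the lowest. The 5 genes outside the list whose log2 CPM was most like the members' mean over these libraries were Fau, whose product carries ribosomal protein S30 (r = 0.97), Eef1b2, a subunit of an elongation factor (0.96), the proteasome gene Psma2 (0.96), Rps18-ps4 (0.96) and the sulfotransferase gene Tpst1 (0.96). Their log2 fold changes were -0.20, -0.12, -0.13, -0.19 and -0.18, and none passed edgeR's test. They were chosen by likeness to a mean that was lower in the deletion group, so values below 0 follow largely from that choice.

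Of the ribosomal proteins that the symbol rule leaves out, a pair had values nearer to 0 than the members' median. On the log2 scale Rps3a1 differed by -0.13 (SE 0.08) and Rack1, a scaffold on the small subunit, by -0.05 (SE 0.09). Rps27a, a member whose product is made as a fusion with ubiquitin, stood at -0.21 (SE 0.06).

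Genes that build ribosomes or control their messages were read from lists. None of the genes in these lists passed edgeR's test. Of 25 ribosomal protein chaperones and factors of large subunit assembly, 18 were lower and 7 higher (median -0.06), with Aamp, a chaperone of Rpl10, at -0.22 (SE 0.08) and Zfp622 at -0.15 (SE 0.07). Of 27 small subunit factors, 16 were lower and 11 higher (median -0.01): the kinase gene Riok1 stood at -0.22 (SE 0.08) and the RNA acetyltransferase gene Nat10 at 0.22 (SE 0.09). Of 13 genes of the nucleolus and of small nucleolar particles, 11 were lower and 2 higher (median -0.12), with Nhp2 at -0.29 (SE 0.09) and Npm1 at -0.20 (SE 0.07). Of 15 genes of RNA polymerase I, which makes ribosomal RNA, 9 were lower and 6 higher (median -0.02), with its largest subunit Polr1a at 0.23 (SE 0.08) and Znrd1 at -0.24 (SE 0.12).

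Other messages with a TOP start, such as translation factors, numbered 28: 25 were lower and 3 higher, with a median of -0.08, with Hnrnpa1 at -0.21 (SE 0.06). This list also holds ribosomal protein genes that the symbol rule leaves out, such as Fau and Rack1. Npm1 and Nap1l1 are on it and on the nucleolus and large subunit assembly lists as well. Of 20 genes of the TOR pathway and of TOP control, 8 were lower and 12 higher (median 0.03). Tsc2, which restrains TOR, stood at 99.7 ± 7.77 CPM in wild-type and 123 ± 9.69 CPM in deletion libraries (0.30, SE 0.07, edgeR adjusted p = 0.0783). Larp1, which binds TOP messages, stood at 137 ± 9.93 and 160 ± 5.78 CPM (0.22, SE 0.06, adjusted p = 0.151). Both have long transcripts, and with the length trend removed the values were 0.25 and 0.15. Mtor itself, chosen for naming after its values were seen, was also higher (0.24, SE 0.08, and 0.16 with the length trend removed). Of 20 genes of the p53 response, 12 were lower and 8 higher (median -0.02), with Zmat3 at 0.28 (SE 0.08) and Sesn2 at 0.28 (SE 0.16).

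Markers of cell types were set beside these values. Of 12 neural progenitor markers 9 were lower and 3 higher (median -0.13), from Id1 at -0.47 (SE 0.13) to Notch1 at 0.24 (SE 0.11). Their summed level ran from 1307 to 1621 CPM in wild-type and from 1198 to 1659 CPM in deletion libraries. Of 15 cell cycle genes 11 were lower (median -0.10), with sums of 284 to 543 and 306 to 503 CPM. Of 12 neuron markers 8 were higher (median 0.03), with sums of 10059 to 10468 and 9519 to 10996 CPM. All 7 tested red blood cell markers, whose transcripts are mostly short, were higher (median 0.15), with sums of 1699 to 2555 and 2234 to 2981 CPM, the last in deletion 4. Markers of microglia (5 of 10 lower, 46.9 to 52.7 and 46.8 to 52.4 CPM), of endothelium (6 of 10 lower, 183 to 223 and 186 to 216 CPM) and of meninges and fibroblasts (2 of 7 lower, 84.6 to 106 and 90.2 to 107 CPM) overlapped too. None of these markers was at 0 in both groups, and none passed edgeR's test. Their part in the ribosomal protein values was not tested.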

How the data were processed

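The authors deposited raw gene counts, made with HISAT2, featureCounts and mm39 per the submitters' processing notes. The sources used here do not give versions, strandedness or the treatment of reads with several matches, which bear on genes with near-identical copies. All 10 columns were matched to samples by title. Symbols (30651 of 30935 IDs) came from RefSeq; IDs without one held 0.0115% of counts. Length and GC content came from a principal GENCODE M21 transcript, for 92.3% of tested genes.

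Differences were tested over all genes by edgeR 4.0.16 under R 4.3.3 (filterByExpr, TMM scaling, robust quasi-likelihood fit, group as the only term, two-sided, Benjamini-Hochberg threshold 0.05), and the test was checked on simulated counts. CPM values are scaled by TMM; log2 CPM used a prior count of 2. Paralogue ratios had an exact permutation test over 252 assignments. Precision is set by 5 libraries per group; p-values measure the spread between these samples. The closest pair of libraries differed far beyond counting noise (chi-square per degree of freedom 5.81), so all were kept.

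The members, gene lists and alternatives were chosen with earlier results of these data known. Named genes were the 8 smallest and 4 largest p, all positive values, the 5 highest and 5 lowest levels, paralogues, 2 to 4 examples of each role list by smallest p, the 2 smallest p of related lists and 5 correlated genes. Alternatives were RLE and upper-quartile factors, scaling by the members' sum, other filters, the replicate block, DESeq2 1.42.0, limma-voom (limma 3.58.1), removal of each library's spline trend (4 degrees of freedom) on length, or on length and GC content, and leaving out each library. Among the genes this rule named, 2 are not reported here.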

Additional observations from a re-analysis of the deposited data

Results flagged for a closer look

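Within a group of 5 libraries, 1 value lay far from the other 4 in 6 of the 94 gene or ratio groups checked, and chance flags about 1 in 20 groups. Deletion 4 was high for Rplp0 (1123 CPM), Rps3 (546 CPM) and Rpl34 (13.5 CPM). Deletion 5 was high for Rpl23a (180.0 CPM), and deletion 6 was low for Rps24 (380 CPM). The log2 ratio of Rpl7l1 to Rpl7 was high in deletion 3 (-2.90).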

How the results depend on the processing

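The median log2 fold change of the members was below 0 under every alternative run. It was -0.029 when libraries were scaled by the members' summed counts, which moved the median of all genes to 0.18. That value is near 0 by construction, since the scaling makes the members' sum equal between libraries. The members' median was -0.072 with the length trend removed and -0.083 with length and GC content removed. The number of members that fell was 2 with RLE factors, a filter of 1 CPM, limma-voom, and length and GC content removed, and 3 with upper-quartile factors. It was 10 with no filter, 28 with DESeq2, and 0 with scaling by the members' sum, with the length trend removed and under the replicate block. Over all genes, 9 fell with RLE factors or a filter of 1 CPM, and 8 with limma-voom. With upper-quartile factors, or with length and GC content removed, 12 fell. With no filter 43 fell, with DESeq2 125, and 0 with the members' sum, the length trend removed or the replicate block. As single libraries were left out, the members that fell ran from 0 to 44, against 0 to 220 of all genes. Under any of these, 0 members rose. The difference in the members' share ran from -0.40 to -0.25 percentage points as libraries were left out.

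For the replicate numbers shared by both groups (2, 4, 5 and 6), the correlations of the libraries' deviations were -0.077, -0.13, -0.063 and 0.12. Each was below the highest correlation with another number. The highest of several values tends to exceed a single one, so this cannot exclude a pairing. With the replicate block the ratio of Rpl22l1 to Rpl22 differed by -0.36, but 4 pairs allow no exact p below 0.125.

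Scaling by the members' sum makes that sum equal between libraries, so members that fell less than the sum turn positive by construction. These log2 fold changes turned positive: Rpl10 0.061, Rpl22 0.0048, Rpl3 0.13, Rpl5 0.039, Rpl7 0.029, Rpl7l1 0.0089, Rplp0 0.083, Rps14 0.14, Rps2 0.13, Rps3 0.0090, Rps4x 0.091 and Rpsa 0.13. With the length trend removed, Rpl10 (0.011), Rpl3 (0.031), Rps14 (0.11), Rps2 (0.058), Rps27 (0.021), Rps4x (0.020) and Rpsa (0.0065) did. With GC content also removed, Rpl10 (0.00026), Rpl3 (0.012), Rps14 (0.096), Rps2 (0.036), Rps27 (0.0069) and Rps4x (0.026) did, and under the replicate block Rps14 did (0.0051).

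As single libraries were left out, Rpl26 ran from -0.011 to 0.10, Rpl29 from -0.023 to 0.25, Rps18 from -0.039 to 0.17, Rpl3 from -0.10 to 0.011, Rps14 from -0.13 to 0.035 and Rpsa from -0.12 to 0.0078. The log2 ratio difference ran from -0.16 to 0.022 for Rps27l to Rps27. For Rpl7l1 to Rpl7 it ran from -0.076 to 0.00083. The lowest, without deletion 3, had an adjusted exact permutation p of 0.0159, but this adjustment does not cover the choice of the library left out. The causes of these shifts were not tested.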
